A study of Mus musculus with 10 samples.

Results

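IKZF2 (Helios) CUT&RUN signal was described at 10 genes of the p53 and apoptosis pathways: Trp53, Bbc3, Bcl2l11, Cdkn1a, Mdm2, Bax, Pmaip1, Bcl2, Bcl2l1 and Mcl1. They are 10 of the 21887 protein-coding genes considered. Their regions were all regions of the deposited set that overlapped the gene span or the 10 kb on either side of it, which gave 67 of 151133 regions. The genes were selected on function with earlier results of these data known, among them the signal of Trp53, Bbc3 and Bcl2l11. The levels of the 10 genes are therefore a description and were not tested against other genes. All samples came from RN2 cells, a C57BL/6 mouse leukaemia line with MLL-AF9 and NRASG12D. The cells had received a retrovirus carrying murine IKZF2 and RFP and were kept in culture for 2 weeks after transduction. IKZF2 was therefore overexpressed in every sample, controls included. Digitonin at 0.1% was also common to all samples. The 6 samples of the anti-IKZF2 group were 3 libraries, each with 2 technical replicates, and the 4 of the control Rabbit antibody group were 2 libraries, also with 2 technical replicates each. Samples of the control antibody are not analysed here, and no value below has a control subtracted. CUT&RUN gives no expression, so the identity of the cells could not be checked against marker genes.

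p53 is a transcription factor that accumulates after DNA damage and oncogenic stress. It induces the cell cycle inhibitor p21 (encoded by Cdkn1a), its own ubiquitin ligase and inhibitor Mdm2, and pro-apoptotic genes of the BCL2 family, among them Bbc3 (PUMA), Pmaip1 (NOXA) and Bax. In the mitochondrial pathway of apoptosis, BH3-only proteins such as PUMA and BIM (Bcl2l11) bind and block the survival proteins BCL2, BCL-XL (Bcl2l1) and MCL1. BAX then permeabilises the outer mitochondrial membrane. Myeloid leukaemia cells often depend on MCL1 or BCL2. IKZF2 is a zinc finger factor of the Ikaros family, whose members bind DNA at short sites with a GGGA core.

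Technical replicate 1, the shallower, held 273896 to 326440 reads in regions and technical replicate 2, the deeper, held 1296355 to 1755015. Summed by library, the totals were 1675237, 1570251 and 2081455 reads. Signal is given as CPM per kb, that is, the counts of a region scaled to the total in regions of its library and divided by the width of the region, with the mean and SD over the 3 libraries. Whether each library had its own culture is not stated, so this SD may measure technical spread alone. Counts were low: in the 67 regions, 61 of 201 counts (30.3%) were 0 in technical replicate 1 and 4 of 201 (1.99%) in technical replicate 2.

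Regions overlapped listed promoter windows at 6 of the 9 genes for which RefSeq starts were at hand (all but Pmaip1). Such a window runs from 250 bases before a start to 50 bases after it. Of the 15 windows of these genes 6 were overlapped by a region, against 18.5% of 32851 windows of all genes. In 4 genes, namely Bcl2l11, Mdm2, Bax and Mcl1, the overlapping region was the highest of the gene. In Cdkn1a it was the region ranked 3 and in Bcl2l1 that ranked 9. The highest region of Trp53 overlapped no window of Trp53 but the window of a start of Wrap53, the neighbouring gene on the opposite strand, which encodes a telomerase and Cajal body protein. The overlapping stretches, all but that of Bcl2l1, are shown because they place the signal relative to the starts, with the RefSeq sequence of GRCm38.p6, the assembly underlying mm10, on the strand of the gene and from 5′ to 3′. Capitals mark GGGAA on either strand, the core letters bound by Ikaros factors, which also contain the GGAA core of ETS factors. Whether region starts count from 0 or 1 is not stated, so each stretch may be off by 1 base at one edge.
Wrap53 start in the highest region of Trp53, chr11:69579246-69579464, minus strand: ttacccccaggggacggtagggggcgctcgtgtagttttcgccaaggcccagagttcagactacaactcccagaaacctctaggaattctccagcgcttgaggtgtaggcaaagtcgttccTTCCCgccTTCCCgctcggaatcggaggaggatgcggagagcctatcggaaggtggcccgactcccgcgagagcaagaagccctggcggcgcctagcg
Bcl2l11 highest region, chr2:128127416-128127565, plus strand: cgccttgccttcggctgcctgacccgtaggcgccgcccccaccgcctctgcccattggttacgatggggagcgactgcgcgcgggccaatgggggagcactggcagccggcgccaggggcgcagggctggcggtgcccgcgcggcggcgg
Part of the Mdm2 highest region inside the promoter window, chr10:117710836-117711008, minus strand: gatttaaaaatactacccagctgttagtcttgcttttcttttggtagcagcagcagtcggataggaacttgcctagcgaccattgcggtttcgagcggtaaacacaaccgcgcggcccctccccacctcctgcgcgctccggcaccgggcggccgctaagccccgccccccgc
Bax highest region, chr7:45466883-45466981, minus strand: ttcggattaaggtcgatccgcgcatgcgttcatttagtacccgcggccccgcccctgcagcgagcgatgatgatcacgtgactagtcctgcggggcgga
Part of the Mcl1 highest region inside the promoter window, chr3:95658736-95658770, plus strand: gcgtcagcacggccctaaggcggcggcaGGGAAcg
Part of the Cdkn1a region ranked 3 inside the promoter window, chr17:29093543-29093818, plus strand: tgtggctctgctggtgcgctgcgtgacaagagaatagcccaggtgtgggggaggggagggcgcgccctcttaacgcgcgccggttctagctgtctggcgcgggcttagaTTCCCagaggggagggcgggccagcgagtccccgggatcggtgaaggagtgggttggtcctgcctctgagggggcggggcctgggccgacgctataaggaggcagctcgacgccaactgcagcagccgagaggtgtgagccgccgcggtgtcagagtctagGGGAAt

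The Wrap53 stretch ran from 215 bases before to 3 bases after the Wrap53 start, had 61.6% G and C and held GGGAA at 2 positions. The Cdkn1a stretch (67.4% G and C) also held it at 2 and the 35 bases of Mcl1 at 1, while the letters were not in the stretches of Bcl2l11, Mdm2 and Bax, nor in that of Bcl2l1 (49.5% G and C). The Bcl2l11 stretch ended 10 bases before the start and had the highest G and C content, 77.3%. Over the whole windows GGGAA was in 8 of 15 windows of the listed genes (53.3%) and in 62.7% of all windows, and the GC box letters GGGCGG were in 10 of 15 (66.7%) and in 35.7%, both strands searched. The E-box letters CACGTG stood in 3 of 15 (20%) and in 7.15%. The windows of the listed genes had a median of 64.7% G and C (range 49.3 to 78.0%), against 52.7% over all windows.

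Trp53, which encodes p53 itself, had the highest mean signal of the 10 genes over the 3 libraries. That first place was not kept in every setting. Without library 2, Bbc3 and Trp53 were level (both 165), and without library 3 Bbc3 stood at 183 against 152. In technical replicate 1 alone the highest regions of Bcl2l11 (190) and Bbc3 (185) exceeded that of Trp53 (163). Without division by width Mcl1 was first, at 41.0 CPM against 36.5 CPM for Trp53. The highest region of Trp53 (218 bp), shown above over the Wrap53 start, lay 884 bp upstream of the Trp53 span (chr11:69580348-69591873) with its midpoint at -1004 bp from the listed Trp53 start. It held 10, 10 and 12 reads in the shallower technical replicate and 38, 49 and 78 in the deeper one, for libraries 1, 2 and 3. Its signal was 131, 172 and 198 CPM per kb, with a mean of 167 ± 33.7 (SD, n = 3), at percentile 98.9 of the 18932 genes with a region. All 3 libraries were high here, and technical replicates 1 and 2 gave means of 163 ± 8.69 and 168 ± 38.9.

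A second strong region at Trp53 lay inside the span, its midpoint 1135 bp after the start (chr11:69581446-69581543, 97 bp). It held 2, 4 and 6 reads in the shallower technical replicate and 21, 16 and 12 in the deeper one. Its signal was 142, 131 and 89.2, with a mean of 121 ± 27.8 (n = 3). Library 1 was thus highest in the inner region and lowest in the upstream one. This inner region is the value of Trp53 when the span alone is used or when each region is given to the nearest gene only (121, below the 158 of Bbc3). In the first case the upstream region lies outside the span, and in the second it belongs to Wrap53. The region between them, inside the gene, stood at 43.8 ± 8.31, and one 5410 bp upstream at 46.8 ± 29.8.

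**Figure D1:**
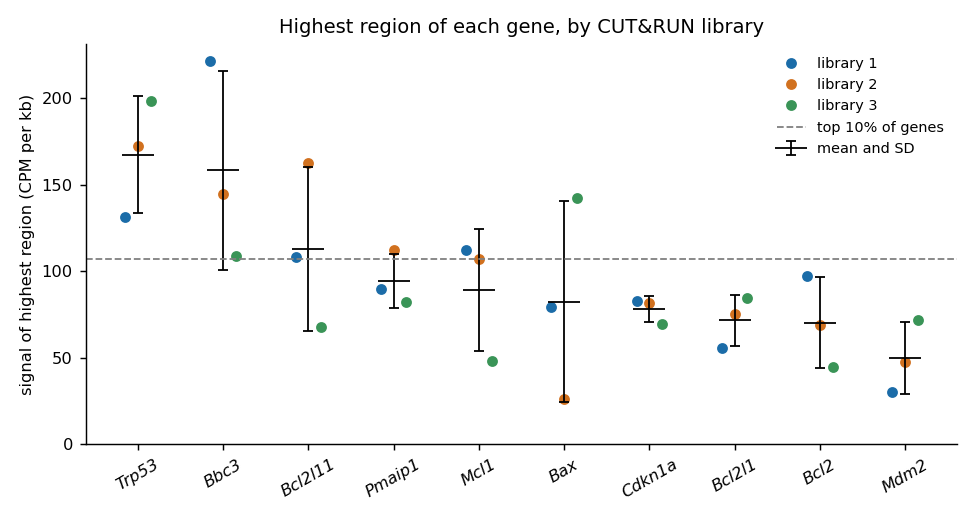
Signal of the highest region of each gene in CPM per kb; coloured points are the 3 libraries, the black bar and whiskers their mean and SD, and the dashed line the lower edge of the top 10% of genes (107). Trp53 lies above the line in each library, while Bax runs from 26.0 in library 2 to 142 in library 3.

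Bbc3, Bcl2l11, Bax and Pmaip1 promote apoptosis. Bbc3, which encodes PUMA, had its highest region inside the gene (chr7:16313183-16313280, 97 bp), 2800 bp after the nearest of its 3 listed starts and over none of their windows. It held 11, 3 and 2 reads in the shallower technical replicate and 25, 19 and 20 in the deeper one. The signal was 222, 144 and 109, with a mean of 158 ± 57.6 (n = 3; percentile 98.6 of genes). Library 1 was the highest, and in technical replicate 1 alone it stood at 378 against 113 and 63.2 in the others. The lowest 2 of its 4 regions stood at 48.8 ± 21.2 inside the gene and 42.6 downstream. A wider region, 7935 bp downstream of Bbc3 and nearer to an end of Sae1, lay between these and the highest and was even across libraries (71.1, 58.8 and 71.5, mean 67.1 ± 7.23).

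Bcl2l11 encodes BIM, a BH3-only activator of apoptosis. Its highest region (149 bp), shown above, lay at positions -159 to -10 relative to the second of its listed starts. Technical replicate 1 gave 2, 4 and 2 reads and technical replicate 2 gave 25, 34 and 19. The signal was 108, 162 and 67.7, with a mean of 113 ± 47.5 (n = 3; percentile 91.9 of genes). Library 2 was more than 2 times library 3. A 94 bp region 3369 bp upstream of the gene was even across libraries (88.9, 88.1 and 71.6, mean 82.8 ± 9.79), but stood at 190 in technical replicate 1 and 60.3 in technical replicate 2. A region further inside the gene (chr2:128132003-128132094) stood at 72.0 ± 19.1, and the remaining 7 at 35.2 to 56.1.

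Bax, the pore-forming effector, varied most. Its highest region (98 bp), over its start, held 4, 0 and 6 reads in the shallower technical replicate and 9, 4 and 23 in the deeper one. The signal was 79.2, 26.0 and 142, with a mean of 82.4 ± 58.2 (n = 3), so library 2 was low and library 3 high. A wider region of 387 bp just downstream of Bax (chr7:45460981-45461368) rested on more reads, 145 against 46, and ran the other way, with 72.5, 98.7 and 47.2 (mean 72.8 ± 25.8). The next region of Bax, inside the gene, stood at 48.3 ± 11.1, and its other 4 at 41.9 to 45.9.

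Pmaip1 encodes the BH3-only protein NOXA. All 5 of its regions lay outside its span and none inside. The highest, of 193 bp, lay 28 bp from one end of the gene (chr18:66458383-66458576). It held 4, 5 and 0 reads in the shallower technical replicate and 25, 29 and 33 in the deeper one. The signal was 89.7, 112 and 82.1, with a mean of 94.7 ± 15.6 (n = 3; percentile 84.9 of genes), close together over the libraries. A second region, 2401 bp from the other end of the gene, had nearly the same mean, 93.1 ± 65.9, but from library 1 above all (169, against 50.7 and 59.5). The next, 5504 bp away, was lowest in that library (23.9, 82.8 and 91.3, mean 66.0 ± 36.7).

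Cdkn1a and Mdm2 are p53 targets that act in cell cycle arrest and in feedback. Cdkn1a, which encodes p21, had its highest region its midpoint 1645 bp after its second listed start (chr17:29095321-29095508, 187 bp), with 2, 4 and 2 reads in the shallower technical replicate and 24, 20 and 25 in the deeper one. The signal of 83.0, 81.7 and 69.4 (mean 78.0 ± 7.53, n = 3) had the smallest relative spread of the 10 genes, 9.65% of the mean. The wide region over the second start (391 bp) rested on 116 reads and stood at 57.0 ± 13.8. An upstream region, 8397 bp before the span, reached 113 in library 2 against 53.2 and 42.8 in the others.

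Mdm2, the ubiquitin ligase that restrains p53, had the lowest mean signal of the 10 genes by the highest region in CPM per kb. Its highest region, just before its start, held 0, 5 and 10 reads in the shallower technical replicate and 13, 14 and 28 in the deeper one. The signal was 30.6, 47.6 and 71.9, with a mean of 50.02 ± 20.8 (n = 3). That put Mdm2 at percentile 12.8 of genes. The region was 254 bp wide, began 78 bp before the start and had its signal divided by that width. Without division by width Mdm2 stood at percentile 69.9 of genes and Bcl2 at 63.1. With widths under 200 bp set to 200 bp they stood at percentiles 62.1 and 52.8. The other 2 regions of Mdm2 stood at 45.3 ± 17.0 and 41.8 ± 14.2.

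Among the survival genes Mcl1 came first. Its highest region (149 bp) began 15 bases after the listed start and held 2, 0 and 4 reads in the shallower technical replicate and 26, 25 and 11 in the deeper one. The signal was 112, 107 and 48.4, with a mean of 89.1 ± 35.4 (n = 3; percentile 81.7 of genes), low in library 3. The widest region of all 10 genes (570 bp, 213 reads) lay 5759 bp upstream of Mcl1 at chr3:95650615-95651185. It stood at 84.8, 80.4 and 50.6 (mean 71.9 ± 18.6), again lowest in library 3. Another upstream region (chr3:95652352-95652455) stood at 62.1 ± 20.1, and the other 6 at 42.2 to 58.2.

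Bcl2l1, which encodes BCL-XL, had its highest region deep inside the gene, 30074 bp from the nearer gene end (chr2:152788806-152789085, 279 bp). It held 3, 0 and 8 reads in the shallower technical replicate and 23, 33 and 41 in the deeper one. The signal was 55.6, 75.3 and 84.4 (mean 71.8 ± 14.7, n = 3). The next, near the 5′ end of the gene (chr2:152833273-152833390) and well inside it (chr2:152806310-152806447), stood at 59.1 ± 32.0 and 58.6 ± 36.8, and the other 8 at 38.3 to 50.8.

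Bcl2 was similar in level. Its highest region (chr1:106715019-106715148, 129 bp) had its midpoint at -794 bp from its start, with 6, 6 and 2 reads in the shallower technical replicate and 15, 8 and 10 in the deeper one. The signal was 97.2, 69.1 and 44.7 (mean 70.3 ± 26.3, n = 3). In none of the 3 libraries was this the highest region of Bcl2. Regions deep inside the gene exceeded it in single libraries: one 69584 bp from the nearer gene end stood at 102, 13.5 and 86.9, and one 22018 bp away at 100.5, 0 and 90.4, with no read in either technical replicate of library 2.

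**Figure D2:**
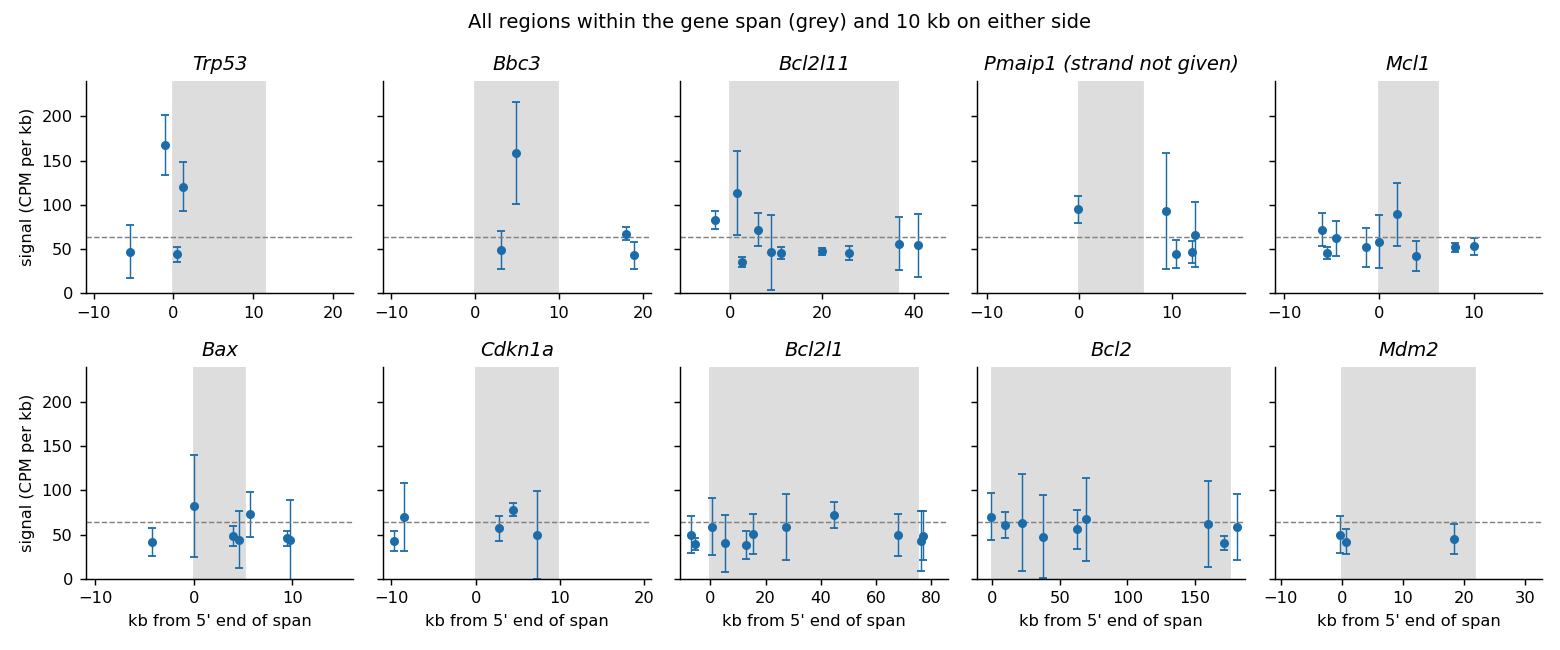
Mean signal (CPM per kb, whiskers SD over 3 libraries) of all 67 regions against distance in kb from the 5′ end of the gene span, which is shaded; the dashed line marks the top 10% of all regions (64.0). For Pmaip1 the distance is from the end with the lower coordinate. The strong regions of Trp53 flank its 5′ end, and those of Bcl2 are spread along the gene.

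In order of their highest region the genes ran Trp53, Bbc3, Bcl2l11, Pmaip1, Mcl1, Bax, Cdkn1a, Bcl2l1, Bcl2 and Mdm2. The first was 3.35 times the last. In all 9 neighbouring pairs of this order the ranges over the 3 libraries overlapped, so the order of neighbours did not exceed their spread. The median was 85.8, against 63.8 over all genes with a region. These 10 genes had 3 (Mdm2) to 11 (Bcl2l1) regions each, against a median of 4 over genes with a region. Trp53, Bbc3 and Bcl2l11 (3 of 10) were in the top 10% of genes, at or above 107, where 10.0% of 18932 genes were by construction. Bcl2l11 was the nearest above this edge and Pmaip1, at 94.7, the nearest below it. Ranked within each library, Trp53 alone was in the top 10% in all of them (1 of 10), against 1.73% of genes. Bbc3 was there in libraries 1 and 2, Bcl2l11 in 1 library, as were Bax and Pmaip1, and the other 5 genes in none. Since the genes were listed with measured values known, those of Trp53, Bbc3 and Bcl2l11 among them, the counts describe the list and do not set it apart.

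How a gene was valued changed this count. Within 1 kb of a gene end, or on regions of 200 bp or wider, Trp53 was the one gene of the 10 left in the top 10%. Within 1 kb of an end of the span Bbc3 and Cdkn1a had no region, and Bcl2l11 stood at 56.1. The highest region of Bcl2l11 was left out there, as it lay 1378 bp from the span end, though just before a listed start. On regions of 200 bp or wider Bbc3 stood at 67.1 and Bcl2l11 at 45.6, and Pmaip1 had none. Without division by width 5 genes were in it: Trp53, Bbc3, Bax, Cdkn1a and Mcl1. Without library 2 Bcl2l11 fell to 87.9 and out of the top 10%, while Bax (111) and Pmaip1 (114) entered it. Trp53 was in the top 10% in all 15 alternative settings, Bbc3 in 12 and Bcl2l11 in 11. With widths under 200 bp set to 200 bp the count stayed at 3 but its genes changed: Bbc3 fell to 76.8 and out of the top 10%, and Pmaip1, at 91.4, was in it.

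Of the 67 regions, 19 (28.4%) were in the top 10% of regions, at or above 64.0, against 10.0% of all regions. Mdm2 had none of these 19, and each of the other genes had 1 to 3. In each of the 3 libraries 3 regions were in the top 10%, both strong regions of Trp53 and that of Bbc3, against 0.645% of all regions. Regions were 90 to 570 bp wide with a median of 117 bp (109 bp over all regions), and 12 of 67 (17.9%) were 200 bp or wider, against 8.86% of all. By position, 36 lay inside a gene span, 14 upstream, 12 downstream and the 5 of Pmaip1 outside its span. The highest region lay within 1 kb of a listed start in 5 of 9 genes (Bcl2l11, Mdm2, Bax, Bcl2 and Mcl1), against 24.9% of 15165 genes with a region and a listed start. For Trp53 the midpoint was at -1004 bp, just outside this limit. The same region was the highest in 3 libraries for Bbc3 alone, in 2 libraries for Trp53, Bcl2l11 and Mcl1, in 1 for Cdkn1a, Mdm2, Bax, Pmaip1 and Bcl2l1, and in none for Bcl2.

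A maximum can only grow with the number of regions, so the reads of all regions in the window were also summed, as CPM per kb of window. By this measure Mcl1 was first, at 3.89, 3.88 and 2.80 in libraries 1 to 3 (mean 3.53 ± 0.63, n = 3; percentile 99.7 of all 21887 genes). This first place depended on the window: with 5 kb on either side Bax stood at 4.39 and Mcl1 at 2.78, and with the span alone Cdkn1a stood at 4.24 and Mcl1 at 3.84. It had 9 regions in a window of 26.2 kb. Bax followed at 2.65 ± 0.26 (percentile 98.9), with 7 regions in 25.2 kb. Cdkn1a (1.96 ± 0.25), Trp53 (1.93 ± 0.23), Pmaip1 (1.82 ± 0.03), Bbc3 (1.59 ± 0.23) and Bcl2l11 (1.56 ± 0.17) lay between percentiles 93.3 and 96.6. Bcl2l1 (0.89 ± 0.20), Mdm2 (0.63 ± 0.16) and Bcl2 (0.33 ± 0.04) were lowest. Bcl2, spread over 176 kb, was the one gene below the median of all genes, 0.52. With 10 kb on either side the order differed from that of the highest region, with Mcl1 and Bax ahead of Trp53. Bbc3 stood at 1.01 with 5 kb, and Pmaip1, which has no region inside its span, at 0 with the span alone. These sums depend on how much sequence was called as regions, which runs from 0.046 regions per kb in Bcl2 to 0.343 in Mcl1.

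**Figure D3:**
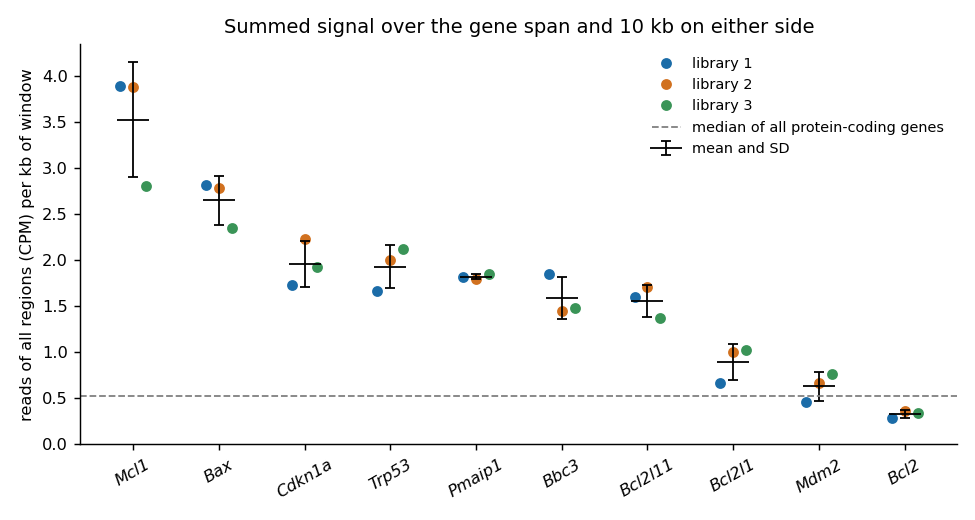
Reads of all regions in the gene span and 10 kb on either side, as CPM per kb of window, by gene; points are the 3 libraries, bars and whiskers their mean and SD, and the dashed line the median of all protein-coding genes (0.52). Mcl1 and Bax stand highest, and Bcl2 lies below the line in each library.

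Technical replicates were compared region by region, with the library as a block. Of the 67 regions 22 had enough reads to be tested, the highest region of each gene among them. None of the 22 passed at an adjusted p under 0.05 (edgeR quasi-likelihood test with Benjamini-Hochberg adjustment over 27452 regions; lowest adjusted p = 0.254), against 0.259% of all regions tested. In edgeR 5 of the 22 had an unadjusted p under 0.05, as did 1884 of all 27452 regions tested. DESeq2 gave an adjusted p to 7 of the 22 and called 0 of them, and 1 of the 22 had an unadjusted p under 0.05 there. The 5 were the highest regions of Bcl2l11, Pmaip1 and Bcl2l1, that ranked 2 in Mcl1 and that ranked 3 in Cdkn1a. All 5 had a higher estimate in technical replicate 2, the largest being 1.71 ± 0.74 on the log2 scale (SE) at Pmaip1. With scaling by total reads in place of TMM, 0 of the 22 had an unadjusted p under 0.05. That scaling moved the median over all tested regions by -0.63 (from 0.41 to -0.22), and the members with a higher estimate in technical replicate 2 went from 17 to 11 of 22. Over all regions the calls were 38 higher of 71 under TMM and 6 higher of 65 under total reads.

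In CPM per kb, which scales by total reads, the mean of the highest region was larger in technical replicate 2 in 6 genes. In the other 4 (Bbc3, Mdm2, Bax and Bcl2) it was larger in technical replicate 1. Under TMM the log2 estimates of these 4, technical replicate 2 over 1, were 0.56, 0.42, 0.30 and -0.34. Their SEs were 0.71, 0.78, 1.10 and 0.95, each larger than its estimate. The means of Trp53 were close by this scaling (163 and 168), while its TMM estimate was 0.66 ± 0.44 on the log2 scale (SE). Mcl1 differed most in ratio, with 42.3 ± 41.2 in technical replicate 1 and 99.5 ± 49.7 in technical replicate 2, and Bcl2 stood at 124 ± 66.8 and 58.8 ± 22.3. A count of 0 occurred in technical replicate 1 in a library of Mdm2, Bax, Pmaip1, Bcl2l1 and Mcl1, and in none of them in technical replicate 2.

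**Figure D4:**
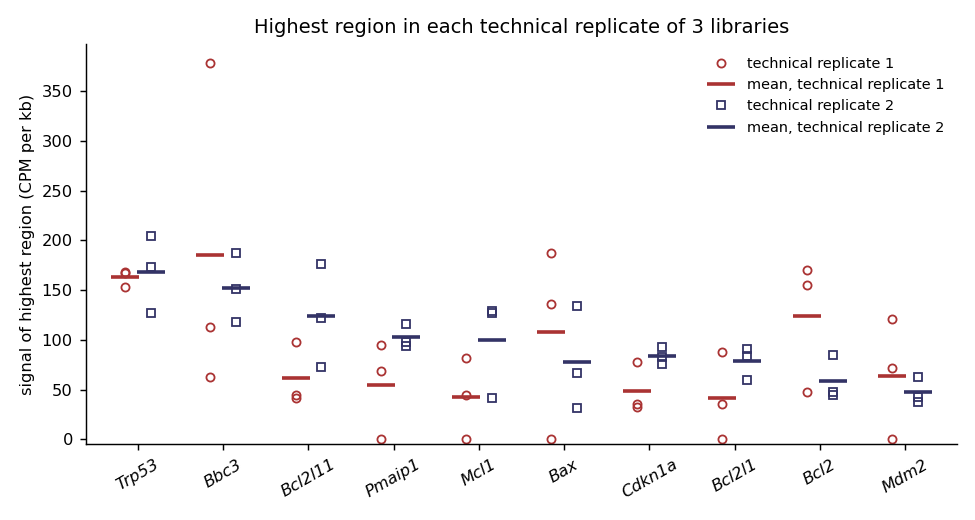
Signal of the highest region (CPM per kb) in each technical replicate; open points are the 3 libraries and bars their mean. With this scaling by total reads the means of Trp53 are 163 and 168, and points at 0 occur in technical replicate 1 in 5 genes.

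Between the 3 libraries none of the 22 tested regions differed either (edgeR quasi-likelihood test, technical replicate kept in the model, Benjamini-Hochberg adjustment over 27452 regions, lowest adjusted p = 1.0), against 0.0146% of all regions tested. Here 0 had an unadjusted p under 0.05, and DESeq2 called 0 with 1 at an unadjusted p under 0.05. The test set differences between libraries against technical spread only, on low counts, so it does not show that the libraries were alike. The SD over libraries was 36.8% of the mean for the highest region of the median member, and 42.4% over all genes. Among the highest regions of the genes, library 2 against library 3 at Bax (26.0 and 142) was the widest gap, and it did not pass this test (unadjusted p = 0.125 over the 3 libraries in edgeR, whose adjusted p was 1.0).

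A wider list of 75 other genes of the pathway was drawn up by function, with earlier results of these data known. Of these genes 71 had a region in their window, with a median highest region of 67.8, near the 63.8 of all genes. In the top 10% were 7 of them, against the 10.0% of all genes with a region given above, and none was there in each library. Casp9, the initiator caspase of the mitochondrial pathway, was highest at 61.2, 169 and 160.1 (mean 130 ± 59.7, n = 3), from a region 2650 bp upstream and nearer to an end of Dnajc16. Bcl2l2, which encodes the survival protein BCL-W, followed at 124 ± 44.4, from a region nearer to an end of Pabpn1. Gadd45b, a stress-response gene, stood at 120.2 ± 11.3, from a region 7639 bp downstream of the gene. Aen, a p53-induced nuclease gene, stood at 115, 112 and 116 (mean 114 ± 2.13), with the 3 libraries close together, and yet it was in the top 10% of no single library. Also among the 7 were Plk3, a stress-response kinase gene, and Pidd1, a death domain adaptor gene, at 113 ± 16.8 and 112 ± 20.6; they were chosen for naming after their values were seen.

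By function, 0 of 12 regulators of p53 were in the top 10%. Of p53 targets in arrest and repair 2 of 17 with a region were, of p53 targets in death 2 of 11, of pro-apoptotic BCL2 family genes 0 of 10, of survival genes of that family 1 of 5, and of caspases and execution genes 2 of 19. Some genes stood in more than 1 of these lists. Plk2, another p53-induced kinase gene, was the lowest with a region, at 37.9 ± 6.41. None of the lists was tested.

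**Figure D5:**
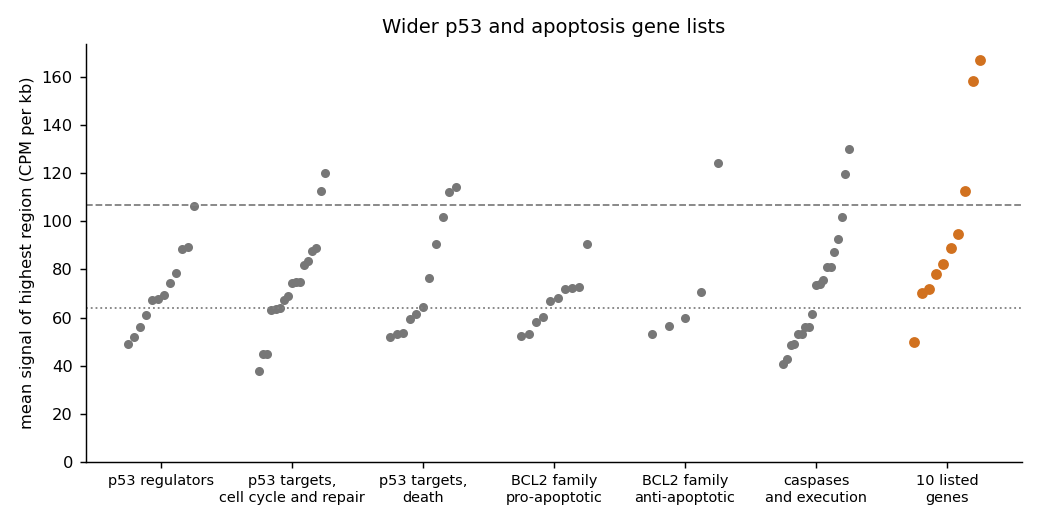
Mean signal of the highest region (CPM per kb) of each gene with a region, by functional list, with the 10 genes at the right in orange; the dashed line is the lower edge of the top 10% of genes (107) and the dotted line the median gene (63.8). Trp53 and Bbc3, which were listed with their values known, lie above all genes of the wider lists, whose highest is Casp9 at 130.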

How the data were processed

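Genes and lists were chosen with earlier results of these data known. For each of the 6 anti-IKZF2 samples the authors deposited raw counts of reads over a region set shared by all samples, with no scaling. Per the submitters' processing notes the build was mm10, with Bowtie2 (2.3.3.1) and MACS2 as tools. Their roles and settings, and the samples on which regions were called, are not stated here. Of member counts of 10 or more, 90.9% of 11 in technical replicate 1 and 50.4% of 119 in technical replicate 2 were even. Mates of a pair may thus both be counted in technical replicate 1, and technical replicate 2 gave no such sign. The technical replicates may have been counted differently, which would bear on their sum and their comparison. This was not tested.

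Technical replicates were summed per library, as the labels make them parts of one CUT&RUN. Gene spans came from RefSeq (GRCm38.p6, protein-coding, chromosomes 1 to 19, X and Y), and strands and starts from its promoter table. The top 10% was taken over genes with a region. The genes named were the 10 members and, of the wider list, those in the top 10% in each library, the 5 highest and the lowest, plus neighbours nearer to a member's highest region. Plk3, Pidd1, Sae1, Dnajc16 and Pabpn1 were named after values were seen. One gene that the rule names is not reported here. edgeR 4.0.16 in R 4.3.3 (filterByExpr with the design, TMM, glmQLFit, glmQLFTest) ran over all regions, with DESeq2 1.42.0 as an alternative, and was tested on simulated counts. Other steps used Python 3.11.15, numpy 2.4.6, pandas 2.3.3 and matplotlib 3.10.9. Alternatives covered windows, widths, filters, scaling, technical replicates and libraries left out.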

Additional observations from a re-analysis of the deposited data

How the results depend on the processing

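Of the alternatives for the 6 counts, 56 left the count within 1.5 times of the main one and 14 did not. The 56 include every alternative for both edgeR counts, which stayed at 0, where a ratio has no meaning. All 14 changes fell on the counts of genes and regions in the top 10%. The 3 genes in the top 10% became 1 within 1 kb of a gene end and on regions of 200 bp or wider, and 5 without division by width. The 7 genes of the wider list became 4 with the gene span alone, 3 within 1 kb and 1 on the wider regions. The gene in the top 10% in each library, 1, became 0 with the gene span alone, with the nearest gene only and in technical replicate 1 alone, and 2 without division by width. The 19 regions in the top 10% became 9, 5 and 4 with the gene span alone, within 1 kb and on wider regions, where fewer regions enter, and 12 in technical replicate 1 alone. For other changes the cause was not tested. Leaving out 1 library gave 3 to 4 genes, 5 to 6 genes of the wider list and 13 to 17 regions.

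Both edgeR counts of 0 stayed at 0 in each alternative, the fit with no replicate block among them, which called 0 member regions and 50 regions in all against 71. Few reads stood behind each region, so counts of 0 do not show that technical replicates or libraries were alike. Without replicate 1, 2 or 3 the technical replicates differed at 18, 0 and 8 regions, 0 of them at the 10 genes. The highest region of each gene rested on 46 to 197 reads in all, which limits each value.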
